A study of Mus musculus with 4 samples.

Results

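The genes described here are 10 genes of the actin cytoskeleton, set by a fixed list of symbols and drawn up with earlier results of these arrays known: Srf, Actg1, Actn1, Tpm1, Tpm2, Tpm4, Flna, Vcl, Myl9 and Cnn2. On the arrays 9 of the 10 had a probe set of their own, and all 9 lay above the brightness filter that kept 18437 of 30702 named genes. Actg1 was read only by probe sets annotated to other genes as well, so what is given for it belongs to those probe sets and is left out of counts and medians. Total RNA from mouse liver was hybridised to 4 single-channel arrays, and each array held a pool of RNA from 3 male mice. The groups were wildtype mice with a floxed Yap1 gene, fasted and taken at 0 h; YAP-KO mice, fasted and taken at 0 h; and mice of each genotype taken 24 h after 300 mg/kg acetaminophen, which was injected into the peritoneum of fasted animals. YAP is a transcriptional coactivator of the Hippo pathway, and the study asked about its part in liver regeneration after an overdose of acetaminophen, a drug that hepatocytes turn into a toxic metabolite. The age of the mice, the Cre driver of the knockout and the cells that lost Yap1 are not given in the sources used here. No array of mice held for 24 h without the drug was analysed here, so time, handling and the drug cannot be told apart.

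SRF, serum response factor, is a transcription factor that binds DNA elements called CArG boxes. It works with 2 families of partners: the myocardin-related factors, which are held in the cytoplasm by actin monomers and enter the nucleus when monomers are built into filaments, and the ternary complex factors, which respond to MAP kinase signalling. Many SRF targets encode actin and the proteins that crosslink filaments, anchor them to adhesions or pull on them. In liver such genes are known from activated stellate cells and smooth muscle, but hepatocytes, endothelial cells and leukocytes carry an actin cytoskeleton too.

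The promoters of the members were searched on both strands for the CArG box, for the motif GGAATG bound by TEAD factors (the DNA-binding partners of YAP) and for the AP-1 motif TGANTCA. RefSeq promoter windows of 300 bases (250 before and 50 after the transcript start, GRCm38.p6) were found for all 10 genes, 1 window each. An exact CArG box stood in 5 of the 10 windows, those of Srf, Actg1, Vcl, Myl9 and Cnn2, against 1.63% of all 32851 windows. The members were picked as SRF target genes, so this share describes the choice as much as the genes. GGAATG stood in 3 windows (Tpm1, Flna and Vcl) against 14.7% of all windows, and TGANTCA in 0 against 7.81%. Vcl was the member with a match to both of the first 2 motifs. A match is a run of letters and does not show binding, and its absence refers to these windows alone. The 250 bases before the start are printed 5′ to 3′ for the 5 genes with a CArG box, because these are the elements through which SRF is known to act; capitals mark the CArG boxes and, in Vcl, the GGAATG as well.
Srf: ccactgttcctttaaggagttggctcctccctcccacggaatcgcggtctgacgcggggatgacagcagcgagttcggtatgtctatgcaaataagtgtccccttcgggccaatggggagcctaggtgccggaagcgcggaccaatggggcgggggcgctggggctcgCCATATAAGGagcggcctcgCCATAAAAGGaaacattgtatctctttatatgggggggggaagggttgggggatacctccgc
Actg1: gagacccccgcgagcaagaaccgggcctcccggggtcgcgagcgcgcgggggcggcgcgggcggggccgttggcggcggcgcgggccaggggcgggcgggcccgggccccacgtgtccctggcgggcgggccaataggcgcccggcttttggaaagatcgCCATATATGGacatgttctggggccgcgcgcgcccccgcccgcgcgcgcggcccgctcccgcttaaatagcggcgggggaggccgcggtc
Vcl: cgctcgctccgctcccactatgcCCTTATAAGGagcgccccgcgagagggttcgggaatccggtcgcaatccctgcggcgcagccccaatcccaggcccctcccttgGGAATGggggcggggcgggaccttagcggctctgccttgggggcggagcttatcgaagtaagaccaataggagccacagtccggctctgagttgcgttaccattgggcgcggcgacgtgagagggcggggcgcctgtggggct
Myl9: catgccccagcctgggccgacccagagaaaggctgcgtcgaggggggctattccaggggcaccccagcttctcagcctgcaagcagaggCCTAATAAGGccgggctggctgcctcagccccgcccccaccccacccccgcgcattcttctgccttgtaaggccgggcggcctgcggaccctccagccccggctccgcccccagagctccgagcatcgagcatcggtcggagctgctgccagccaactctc
Cnn2: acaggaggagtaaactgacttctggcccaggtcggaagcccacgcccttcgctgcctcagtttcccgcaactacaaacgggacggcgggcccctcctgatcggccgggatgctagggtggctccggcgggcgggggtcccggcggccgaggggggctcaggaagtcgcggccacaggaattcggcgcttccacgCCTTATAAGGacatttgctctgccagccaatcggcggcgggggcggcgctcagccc
The Srf promoter lies at chr17:46556163-46556412 on the minus strand and lies inside the RefSeq span of Srf, which reaches further upstream. It holds 2 CArG boxes, CCATATAAGG from 82 to 73 bases and CCATAAAAGG from 62 to 53 bases before the start. The Actg1 window, chr11:120348496-120348745 on the minus strand, lies just outside the gene and holds CCATATATGG from 90 to 81 bases before the start. In Vcl, chr14:20929148-20929397 on the plus strand, CCTTATAAGG stands 227 to 218 bases and GGAATG 143 to 138 bases before the start, and the last 15 bases lie inside the gene's span. In Myl9, chr2:156775214-156775463 on the plus strand, CCTAATAAGG stands 161 to 152 bases before the start, and the last 56 bases lie inside the gene's span. In Cnn2, chr10:79988350-79988599 on the plus strand and outside the gene, CCTTATAAGG stands 56 to 47 bases before the start.

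**Figure D1:**
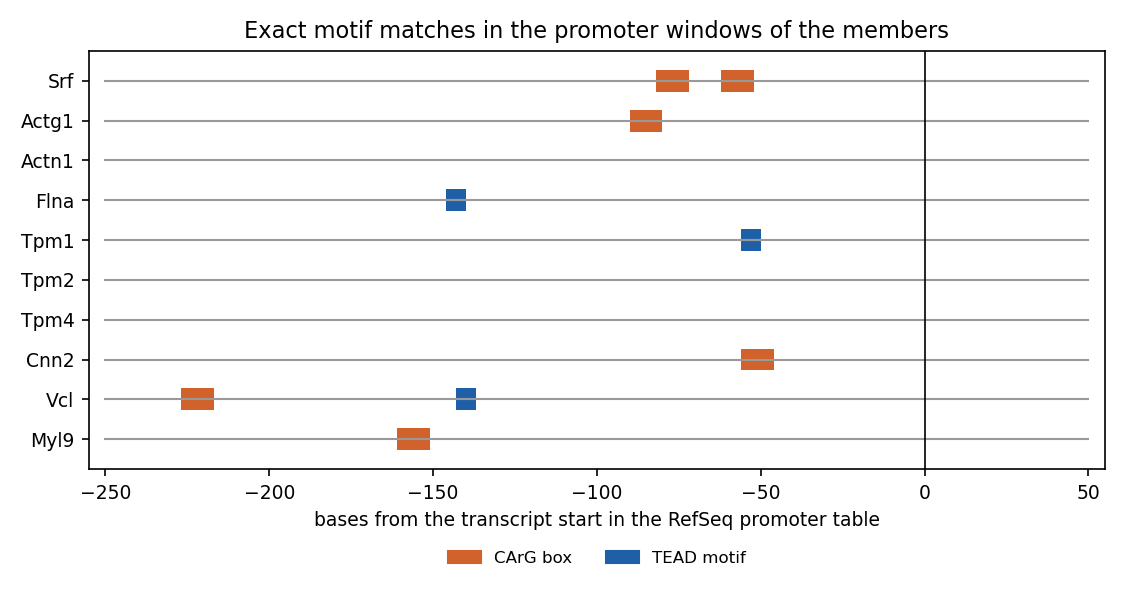
Exact motif matches in the promoter windows of the 10 members, by distance in bases from the transcript start (at 0). Orange bars are CArG boxes and blue bars GGAATG on either strand; 5 windows hold a CArG box (Srf holds 2), and Actn1, Tpm2 and Tpm4 hold neither motif.

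Values are log2 array values as deposited, with the log base inferred from their range, and a difference of 1 is 2-fold. A single array stood for each group, so differences carry no replicate check and no p-value; the number of arrays limits the precision, and pooling removes the spread among animals. Differences are set against the same measure over the 18437 kept genes, whose median was 0.07 between 24 h and 0 h in each genotype, -0.03 for YAP-KO minus wildtype at 0 h and -0.02 at 24 h. Yap1 itself read 7.54 at 0 h and 8.24 at 24 h in wildtype, against 6.31 and 6.01 in YAP-KO, lower in YAP-KO at both times. The hepatocyte genes Alb, Apoa1 and Ttr lay within 0.01 of the highest value on all 4 arrays. No value of a member reached that ceiling. The arrays read whole liver, so more cells of a type and more RNA per cell cannot be told apart.

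Of the 9 genes with their own probe sets, all 9 read higher 24 h after acetaminophen in wildtype and 8 of 9 did in YAP-KO (all but Tpm2), each by more in wildtype. Over all genes 54.5% read higher at 24 h in wildtype and 58.2% in YAP-KO. In wildtype 8 of 9 were 2-fold or more higher at 24 h (all but Tpm2), where 12.7% of all genes were, and the median difference was 1.95. In YAP-KO 3 of 9 (Flna, Tpm4 and Actn1) were 2-fold or more higher, where 4.73% of all genes were, and the median was 0.75. At 24 h all 9 were lower in YAP-KO than in wildtype, where 51.9% of all genes were, from -1.87 to -0.27 with a median of -0.82. Of the 9, 7 were 1.5-fold or more lower, where 13.4% of all genes were, and 2 (Vcl and Tpm4) were 2-fold or more lower, where 5.73% were. Before the drug 0 of 9 differed 1.5-fold or more between the genotypes, which with 8.27% of all genes is near the background. The differences ran from -0.14 to 0.42. The shared probe sets of Actg1, left out of these counts, read 0.93 and 1.08 higher in YAP-KO at 0 h. The order wildtype 24 h above YAP-KO 24 h above both 0 h arrays was seen in 8 of 9 members and in 24.6% of all kept genes. The response of wildtype and the difference between genotypes at 24 h share the wildtype 24 h array, so they are not separate observations.

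**Figure D2:**
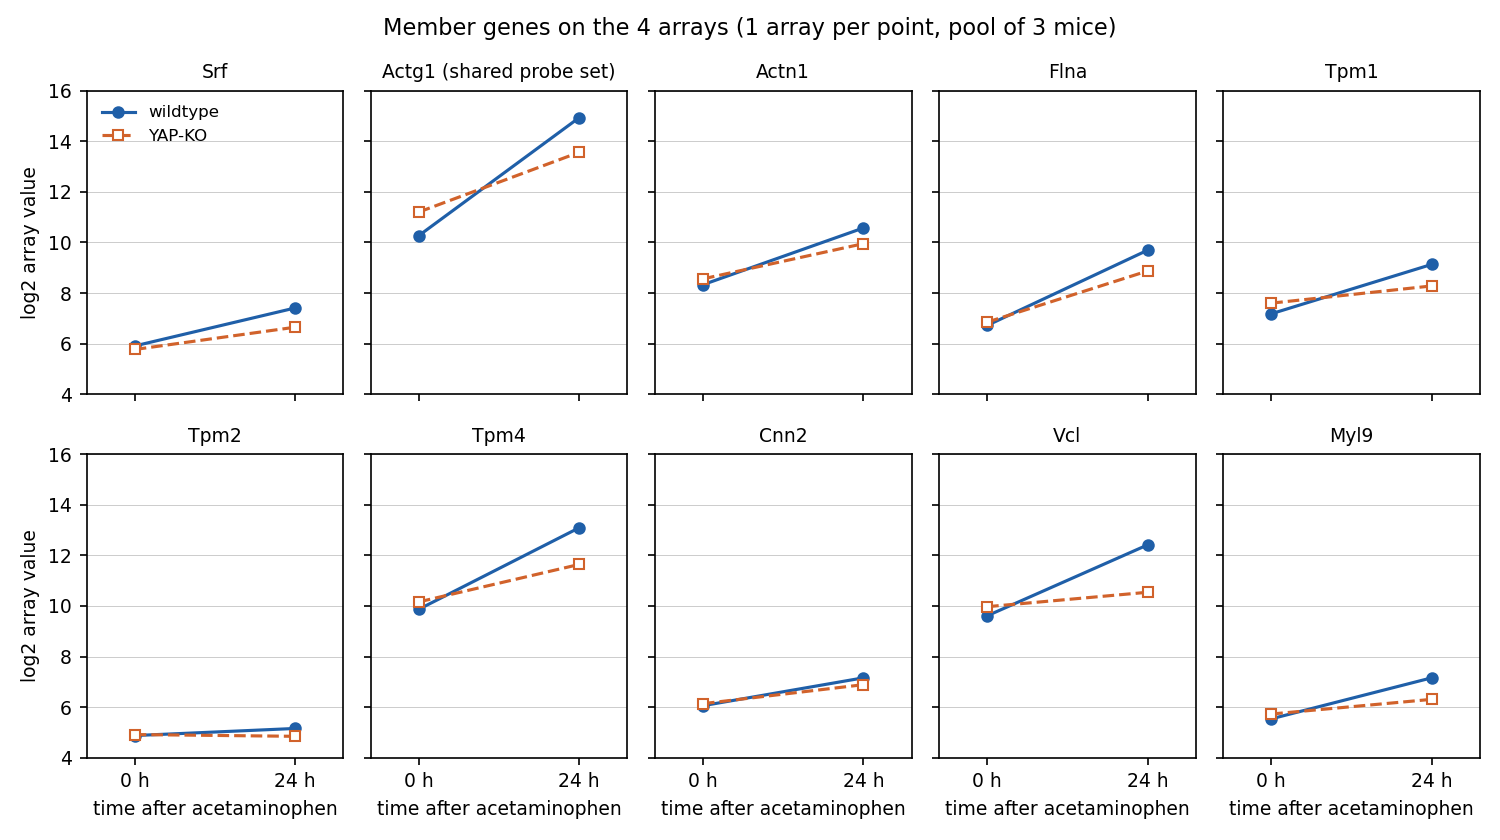
Log2 array values of the 10 members at 0 h and 24 h after acetaminophen, with filled circles for wildtype and open squares for YAP-KO; each point is 1 array of a pool of 3 mice and lines join the times of a genotype. At 24 h each YAP-KO point lies below the wildtype point (difference -1.87 for Vcl and -0.27 for Cnn2), while Tpm2 is nearly flat; Actg1 is the probe set shared with a microRNA.

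Srf, the transcription factor gene (chromosome 17, GRCm38.p6 46546838 to 46558267), read 5.91 at 0 h and 7.41 at 24 h in wildtype, against 5.77 and 6.65 in YAP-KO. Both 24 h arrays stood above both 0 h arrays, with YAP-KO between. The difference over time was 1.5 (2.83-fold) in wildtype against 0.88 (1.84-fold) in YAP-KO, and YAP-KO was lower by 0.76 at 24 h. Srf was the one member that read lower in YAP-KO at 0 h, by 0.14. Of 6 listed partner genes 5 were kept, with a median 24 h difference of 0.25 in wildtype and -0.06 in YAP-KO. Mrtfa, which encodes a myocardin-related factor, read 5.68 and 5.82 at 0 h and 5.84 on each 24 h array. Mrtfb, its close relative, read 8.50 at 0 h and 8.83 at 24 h in wildtype, against 8.85 and 8.67 in YAP-KO. The ternary complex factor gene Elk4 had the farthest difference of the 5, at 0.55 in wildtype and -0.06 in YAP-KO. Myocd, the gene of the muscle coactivator myocardin, was below the filter level of 4.322. These arrays measure transcript, and the myocardin-related factors are known to be controlled by where the protein is and the ternary complex factors by phosphorylation.

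Actg1 encodes gamma-actin, one of the 2 cytoplasmic actins. The probe set at its own locus on chromosome 11, annotated to Actg1 and the microRNA gene Mir6935, read 10.27 at 0 h and 14.93 at 24 h in wildtype, against 11.20 and 13.56 in YAP-KO. That is a difference over time of 4.66 in wildtype against 2.36 in YAP-KO, and of -1.37 between the genotypes at 24 h. At 0 h the YAP-KO reading was 0.93 higher. A second probe set, annotated to Actg1 and to Gm12715, a pseudogene on chromosome 4, read 10.50 at 0 h and 15.66 at 24 h in wildtype, against 11.58 and 14.19 in YAP-KO. The readings of both have the same order over the arrays, with wildtype at 0 h lowest and wildtype at 24 h highest. Near-identical sequences may hybridise to both, so the 2 probe sets are not independent readings.

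Actin genes outside the members did not share one pattern. Actb, the other cytoplasmic actin gene, read 15.51 at 0 h and 17.81 at 24 h in wildtype, against 15.58 and 17.04 in YAP-KO, a difference between genotypes of -0.77 at 24 h. Acta2, the smooth muscle actin gene and a marker of activated stellate cells, was about as much higher in each genotype, 3.07 for wildtype against 2.96 for YAP-KO, and YAP-KO minus wildtype was -0.20 at 24 h (9.87 in wildtype, 9.67 in YAP-KO). Of the 4 kept genes of this list (Actc1 had no probe set of its own here), 2 (Actb and Acta2) were 2-fold or more higher in wildtype and the same number in YAP-KO, against 12.7% and 4.73% of all genes. The muscle actin genes Acta1 and Actg2 were at 4.32 to 5.27 on all arrays and differed by 0.62 or less over time.

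Among the crosslinkers, Actn1 (chromosome 12, 80167542 to 80260420) encodes alpha-actinin 1, which bundles filaments at adhesions and stress fibres. It read 8.33 at 0 h and 10.57 at 24 h in wildtype, against 8.56 and 9.95 in YAP-KO. Its 24 h difference was 2.24 (4.72-fold) in wildtype and 1.39 (2.62-fold) in YAP-KO, with both 24 h arrays above both 0 h arrays. Flna (chromosome X, 74223461 to 74249854) encodes filamin A, which joins filaments into networks and ties them to membrane receptors. It read 6.72 at 0 h and 9.69 at 24 h in wildtype, against 6.85 and 8.87 in YAP-KO, a difference over time of 2.97 (7.84-fold) in wildtype and 2.02 (4.06-fold) in YAP-KO. Flna had the highest YAP-KO response of the 9 genes with their own probe set, with 86 of 18437 genes higher. YAP-KO was lower than wildtype at 24 h by 0.62 for Actn1 and 0.82 for Flna.

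Tropomyosins lie along the actin filament and set which myosins and other proteins reach it, and the 3 measured members of that family gave 3 sizes of difference. Tpm4 (chromosome 8, 72135288 to 72153142), a cytoplasmic form, read 9.87 at 0 h and 13.09 at 24 h in wildtype, against 10.16 and 11.64 in YAP-KO. Its response of 3.22 (9.32-fold) was the highest wildtype response among the 9, with 136 of 18437 genes higher, against 1.48 (2.79-fold) in YAP-KO. Tpm1 (chromosome 9, 67022590 to 67049672) read 7.18 at 0 h and 9.13 at 24 h in wildtype, against 7.60 and 8.28 in YAP-KO, so its 24 h difference was 1.95 (3.86-fold) in wildtype and 0.68 (1.60-fold) in YAP-KO. Tpm2 (chromosome 4, 43513726 to 43523583), best known from muscle, read 4.88 at 0 h and 5.16 at 24 h in wildtype, against 4.92 and 4.85 in YAP-KO; its values on the 4 arrays spanned 0.31, and the YAP-KO arrays read nearly alike. Tpm2 lay close to the filter level of 4.322, and with no detection calls, a flat profile and an undetected transcript look the same. Cnn2 (chromosome 10, 79988600 to 79995400) encodes calponin 2, a filament-stabilising protein of non-muscle cells. It read 6.06 at 0 h and 7.16 at 24 h in wildtype, against 6.14 and 6.89 in YAP-KO, and its genotype difference at 24 h, -0.27, was the smallest of the 9. Its wildtype response of 1.10 fell under 2-fold, to 0.92, with quantile normalization of the arrays.

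Vcl (chromosome 14, 20929383 to 21033676) encodes vinculin, which links actin to integrin and cadherin adhesions under load. It read 9.61 at 0 h and 12.41 at 24 h in wildtype, against 9.97 and 10.54 in YAP-KO. The wildtype 24 h array stood well apart from the other 3. The response was 2.80 (6.96-fold) in wildtype against 0.57 in YAP-KO, and Vcl had both the farthest genotype difference at 24 h (-1.87, with 281 of 18437 genes lower) and the farthest difference of responses (-2.23, with 208 genes lower) among the 9. Flna and Vcl, which were close in wildtype response, thus differed in YAP-KO, at 2.02 and 0.57. Myl9 (chromosome 2, 156775408 to 156781657) encodes a regulatory light chain of non-muscle and smooth muscle myosin. It read 5.54 at 0 h and 7.16 at 24 h in wildtype, against 5.73 and 6.31 in YAP-KO, a response of 1.62 (3.07-fold) against 0.58.

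The difference of responses is the YAP-KO response minus the wildtype response. It was below 0 for all 9 (50.01% of all genes), with a median of -0.95 against -0.01 over all genes. It was 2-fold or more for 4 of 9, Vcl (-2.23), Tpm4 (-1.74), Tpm1 (-1.27) and Myl9 (-1.04), where 7.51% of all genes were 2-fold or more below 0. Flna (-0.95) and Actn1 (-0.85) followed, then Srf (-0.62), Tpm2 (-0.35) and Cnn2 (-0.35). Each value also takes in the 0 h arrays, on which 8 of 9 members read slightly higher in YAP-KO (44.5% of all genes). Tpm1 (0.42) and Vcl (0.36) were farthest. Srf read lower in YAP-KO at 0 h (-0.14), so its difference of responses was smaller in size than its 24 h genotype difference (-0.76).

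**Figure D3:**
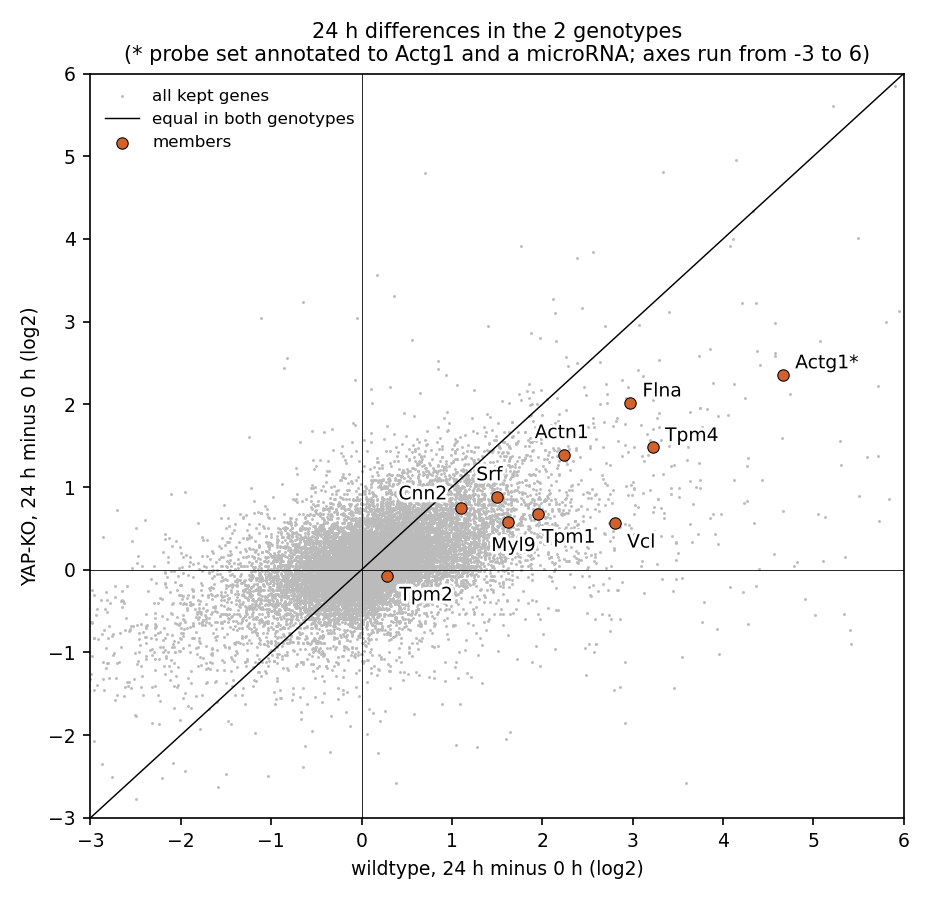
The 24 h minus 0 h difference in log2 units in wildtype (horizontal) against YAP-KO (vertical) for all kept genes (grey) and the members (orange), on axes cropped at -3 and 6; the diagonal marks equal differences. All members lie below the diagonal, with Flna at 2.97 and 2.02 and Vcl at 2.80 and 0.57.

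Further genes of the actin and SRF system were taken from 6 lists, 64 genes in all, of which 51 were kept. In wildtype 26 of the 51 were 2-fold or more higher at 24 h, where 12.7% of all genes were. In wildtype 1 of the 51 was 2-fold or more lower (Parva, an adhesion protein gene, at -1.13). Over all 18437 genes 3422 differed 2-fold or more either way in wildtype, and 68.3% of those were higher. In YAP-KO 11 of 51 were 2-fold or more higher, where 4.73% of all genes were. Between the genotypes at 24 h, 11 of 51 were 2-fold or more lower in YAP-KO, where 5.73% of all genes were. At that time 0 were 2-fold or more higher, which with 3.24% of all genes is near the background. At 0 h 0 of 51 differed 2-fold, which with 1.89% of all genes is also near the background.

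Tropomyosin, myosin and calponin relatives had a median of 1.33 in wildtype and 0.71 in YAP-KO over 10 kept genes. Tagln, the smooth muscle gene for transgelin, read 5.54 at 0 h and 9.92 at 24 h in wildtype, against 6.31 and 8.96 in YAP-KO, a response of 4.38 against 2.65. Tpm3, a further tropomyosin gene, was higher at 24 h by 2.25 in wildtype against 0.78 in YAP-KO, and the myosin light chain gene Myl12a by 2.03 against 0.64. Cald1, encoding caldesmon, was higher by 1.65 and 0.78, and Cnn3, a calponin gene, by 1.01 and 0.37. Tagln2 was higher by about as much in each genotype, with 1.94 in wildtype and 2.01 in YAP-KO. Of the 10 kept genes 4 read higher in YAP-KO than in wildtype at 24 h, where 46.8% of all genes did. These were Mylk by 0.36, Tagln2 by 0.33, Myh14 by 0.27 and Myl12b by 0.12, and the other 6 read lower. Mylk and Myh14 were lower at 24 h than at 0 h in wildtype, by 0.53 and 0.38.

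Crosslinker and focal adhesion genes had a median of 0.91 in wildtype and 0.29 in YAP-KO over 15 kept genes. In wildtype 7 of 15 were 2-fold or more higher, where 12.7% of all genes were, and in YAP-KO 2 of 15 were, where 4.73% of all genes were. Tes, encoding the adhesion protein testin, was higher at 24 h by 2.95 in wildtype against 1.42 in YAP-KO, and the integrin gene Itgav by 2.16 against 0.54. Zyx, encoding zyxin, a protein of adhesions and stress fibres, read 6.55 at 0 h and 7.84 at 24 h in wildtype, against 6.58 and 6.58 in YAP-KO. The wildtype 24 h array alone was high for Zyx. Pdlim5 had a similar shape, with 1.12 in wildtype and 0.10 in YAP-KO. Itga5, the fibronectin receptor subunit gene, was 1.86 and 1.59, Itgb1 was 1.59 and 0.81, and the alpha-actinin gene Actn4 was 1.46 and 0.93.

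Genes of actin monomers and filament turnover were higher at 24 h in both genotypes, and their median for YAP-KO minus wildtype at 24 h was -0.32. All 12 kept genes were above 0 in wildtype (54.5% of all genes), with a median of 1.28. In YAP-KO 11 of 12 were (58.2% of all genes), with a median of 0.88. Of the 12, 7 were 2-fold or more higher in wildtype (12.7% of all genes), against 5 in YAP-KO (4.73%). Wdr1, a cofactor of cofilin in filament disassembly, read 9.77 at 0 h and 12.69 at 24 h in wildtype, against 10.27 and 11.78 in YAP-KO. Actr3, a subunit of the branching Arp2/3 complex, was higher by 1.96 in wildtype and 1.19 in YAP-KO, Cap1 by 2.10 and 1.16, the profilin gene Pfn1 by 1.59 and 1.12, and the monomer-binding thymosin gene Tmsb4x by 1.5 and 1.31. At 24 h 10 of the 12 read lower in YAP-KO than in wildtype, where 51.9% of all genes did. The other 2, Cfl1 and Dstn, read higher by 0.14 and 0.35, and Cfl1 had a response of 0.94 in each genotype.

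Immediate early genes driven by SRF with ternary complex factors had the lowest median for YAP-KO minus wildtype at 24 h of the 6 lists, -1.38. Of 8 listed genes 5 were kept. Egr3 and Fosb lay below the filter, with 24 h differences of -0.61 and -0.07 in wildtype, and Junb had no probe set of its own. Of the 5, 4 were 2-fold or more higher in wildtype at 24 h, where 12.7% of all genes were. In YAP-KO 0 of 5 were, which with 4.73% of all genes is near the background. The medians were 1.58 and 0.01. Without the filter, over 7 genes, they were 1.32 and 0.01, and the median for YAP-KO minus wildtype at 24 h was -1.13. Egr1, a zinc finger transcription factor gene, read 6.13 at 0 h and 8.79 at 24 h in wildtype, against 7.08 and 6.55 in YAP-KO. Ier2 read 5.23 at 0 h and 7.73 at 24 h in wildtype, against 5.35 and 5.36 in YAP-KO. Fos was 1.58 higher in wildtype and 0.42 in YAP-KO, and Mcl1, which encodes a survival factor of the BCL2 family, 1.32 and -0.23. For Ier2, Fos and Egr1 the wildtype 24 h array was high and the YAP-KO 24 h array was within 0.53 of its own 0 h array.

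**Figure D4:**
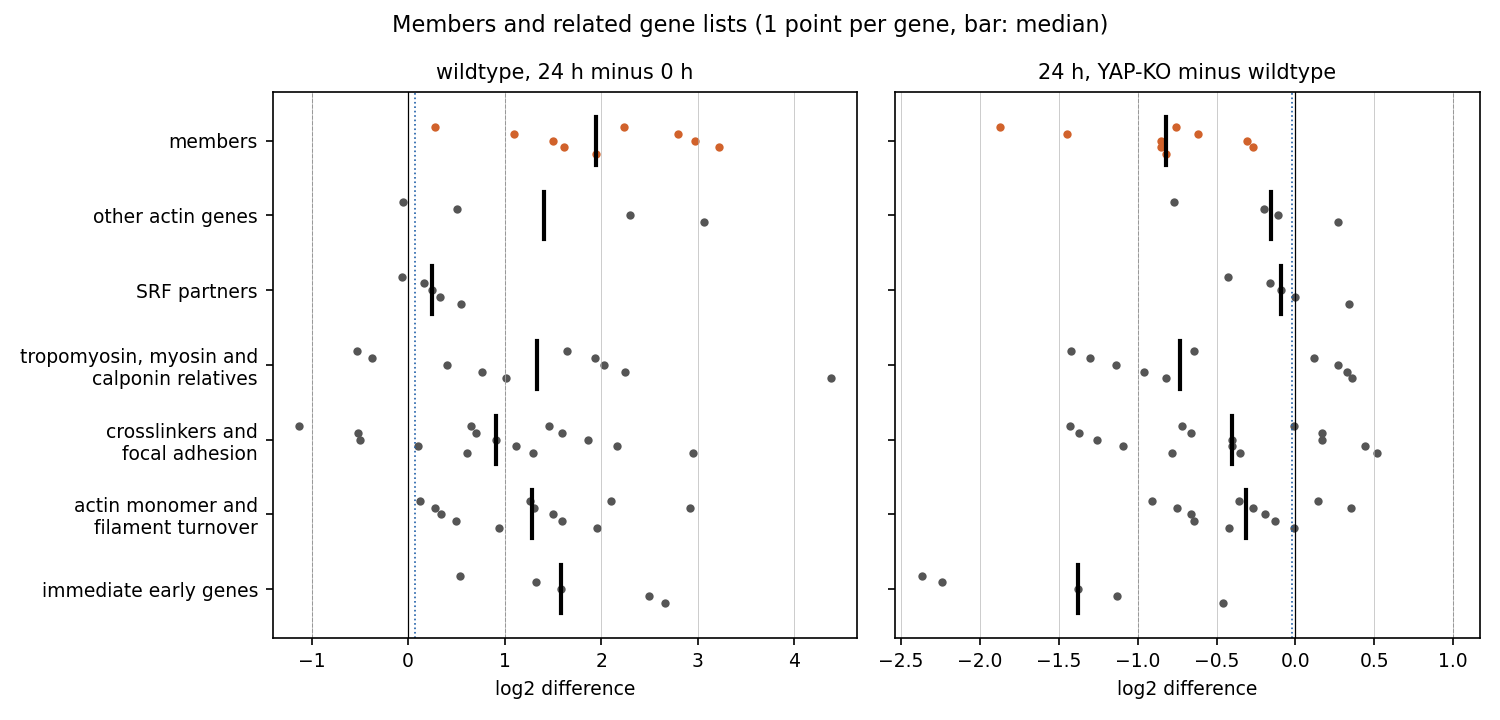
Log2 differences of the 9 members (orange) and of the kept genes of 6 related lists (grey), for wildtype 24 h minus 0 h (left) and for YAP-KO minus wildtype at 24 h (right); black bars are medians, dashed lines mark 2-fold and the dotted line the median of all kept genes. The members' median is 1.95 on the left and -0.82 on the right, and the immediate early genes have medians of 1.58 and -1.38.

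Markers of cells rich in actin also differed between the arrays. The stellate cell, fibroblast and smooth muscle list had 9 of 9 markers kept, with medians of -0.06 in wildtype and 0.19 in YAP-KO over time and 0.22 for YAP-KO minus wildtype at 24 h; its summed level in log2 units went from 13.1 to 14.4 in wildtype, against 13.2 to 13.3 in YAP-KO. The smooth muscle myosin gene Myh11 stayed between 5.21 and 5.43, and the collagen genes Col1a1 and Col1a2 between 5.13 and 5.76. Platelet markers had 5 of 6 kept, and the summed level went from 7.12 to 8.75 in wildtype, against 7.35 to 7.49 in YAP-KO, with Itga2b between 4.45 and 4.55 and Itgb3 at 7.71 in wildtype at 24 h. Neutrophil markers had 7 of 8 kept, with a summed level from 8.36 to 11.3 against 8.47 to 9.45 and Mpo below the filter. Macrophage and Kupffer cell markers (10 of 10 kept) went from 12.4 to 14.4 in wildtype against 12.3 to 14.1 in YAP-KO. At 24 h 9 of these 10 read lower in YAP-KO than in wildtype, where 51.9% of all genes did. Vsig4 (-1.70), Marco (-1.67) and Csf1r (-1.27) were farthest, while Cd68 (-0.02), Lyz2 (-0.01) and Cd5l (-0.01) were nearly equal. Endothelial markers (7 of 7) went from 12.5 to 14.6 against 12.5 to 13.1, and biliary markers (4 of 5, the 24 h sums led by Sox9) from 7.39 to 9.24 against 7.54 to 8.52. The summed levels of these 6 lists were highest on the wildtype 24 h array, as the members were, but a sum follows its brightest genes. The stellate sum was led by Dcn, at 14.38 in wildtype against 13.17 in YAP-KO at 24 h, and the endothelial sum by Lyve1 (13.57 and 9.69) and Cdh5 (13.21 and 11.72). The 24 h neutrophil sums were led by S100a8 (10.06 and 7.59) and S100a9 (9.33 and 7.70). Other markers of these lists read higher in YAP-KO at 24 h, among them Lrat by 1.16, Col3a1 by 0.71, Kdr by 0.51 and Pdgfrb by 0.45. Of the neutrophil markers Ly6g was 0.53 and Camp 0.18 higher in YAP-KO, and the other 5 kept ones were lower. The list medians of YAP-KO minus wildtype at 24 h were 0.02 for endothelial, -0.08 for biliary, -0.48 for macrophage, -0.80 for platelet and -1.05 for neutrophil markers.

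Hepatocyte markers (8 of 8 kept) had a median of -0.55 in wildtype and 0.05 in YAP-KO over time, and of 0.37 for YAP-KO minus wildtype at 24 h. Of the 8, 4 reached the ceiling on at least 3 arrays; without them the medians were -0.83, -0.71 and 0.90. Cyp7a1, the rate-limiting enzyme gene of bile acid synthesis, read 10.50 at 0 h and 5.04 at 24 h in wildtype, against 10.90 and 8.31 in YAP-KO. Asgr1, an asialoglycoprotein receptor gene, read 13.37 and 12.75 in wildtype, against 13.19 and 13.77 in YAP-KO. The summed hepatocyte level stayed between 22.0 and 22.2 on the 4 arrays, near the ceiling. The part of any of these marker lists in the members' differences was not tested.

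The shape of the members over the 4 arrays was shared by many genes. The median profile of the 9 members, each centred on its own mean, went from -0.81 at 0 h to 1.14 at 24 h in wildtype, against -0.61 to 0.29 in YAP-KO. By Euclidean distance over the 4 arrays the 10 nearest of the 18437 genes, leaving out predicted genes, were Ppp2r1a (0.030), a scaffold subunit gene of protein phosphatase 2A, Abce1 (0.064), the tetraspanin gene Cd151 (0.068), the stress transcription factor gene Atf4 (0.078), the unconventional myosin gene Myo9b (0.087), Eif2b3, Pes1, Fkbp1a, the chaperonin subunit gene Cct3 and Taf9-ps. Ppp2r1a read 10.83 at 0 h and 12.78 at 24 h in wildtype, against 11.07 and 11.93 in YAP-KO. The nearest member was Tpm1 (0.186), with 36 genes nearer to the median profile, and the farthest was Tpm2 (1.38), with 6752 nearer.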

How the data were processed

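The deposited values are the authors' processed values of 4 arrays, 65956 probe sets each, taken as log2 from their range of 2.24 to 19.93; the log base, summarisation, background correction and normalization are not given in the sources used here. Per the labels, RNA was extracted with Trizol and labelled with biotin by the GeneChip WT Plus kit, and 3 mice were pooled per array. Array medians ran from 4.32 to 4.47.

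Genes were named from the platform annotation and updated through RefSeq (GRCm38.p6): 31258 probe sets carried 1 gene, 1492 several and 33206 none. Synonyms of 1 current gene counted once, and no gene value came from a probe set with several genes. The brightest probe set of a gene was taken, and 18437 genes, those whose mean over the arrays reached the 40th percentile (4.322), were kept. Values within 0.01 of an array's highest were treated as at the ceiling.

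Arrays were compared by log2 differences over 5 contrasts: 24 h minus 0 h per genotype, YAP-KO minus wildtype per time, and the difference of responses. A 2-fold difference is a call of size; single arrays allow no test. The script was tested on simulated data with known differences. Summed levels are the log2 of summed linear values. The members and lists were chosen with earlier results of these data known, and 1 gene list is not reported here. Named genes are the members, the 10 nearest profiles and genes of each list. Of a list these are the genes 2-fold or more in a contrast (up to the 5 farthest) or at the low end. Parva, Elk4, Lima1 and the unmoved actin and SRF partner genes were named after their values were seen. So were list genes named for reading higher in YAP-KO at 24 h: Cfl1, Dstn, Mylk, Myh14, Myl12b, Col3a1, Kdr, Ly6g and Camp. Computations used Python 3.11.15, numpy 2.4.6 and pandas 2.3.3.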

Additional observations from a re-analysis of the deposited data

Results flagged for a closer look

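The 24 h difference had opposite signs in the genotypes in 1 of the 9 members and in 2 list genes that were 2-fold or more different in a genotype; list genes with smaller differences of opposite sign are not given here. Each sign rests on 1 array per group and time, and the difference was not tested. The share of all genes with opposite signs is not given here, so these counts have no background beside them. The member was Tpm2, with 0.28 in wildtype and -0.07 in YAP-KO, both small. Egr1, the immediate early transcription factor gene, had 2.66 in wildtype and -0.53 in YAP-KO. The survival factor gene Mcl1 had 1.32 and -0.23.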

How the results depend on the processing

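No paired analysis was possible because each group has 1 array, so the shared replicate number leaves nothing to block on. The median of the members moved by less than 1.5-fold under every alternative run: quantile normalization, centring, averaged probe sets, no filter or a 60th percentile filter, leaving out genes at the ceiling and, chosen after seeing the data, Actg1 included, 1 Entrez ID counted as 1 gene and the 0 h array of the other genotype. It ran from 1.64 to 2.10 in wildtype, from 0.69 to 0.93 in YAP-KO, from 0.19 to 0.23 between the genotypes at 0 h, from -0.86 to -0.69 at 24 h and from -1 to -0.87 for the difference of responses. Of 328 values of single members, 1 changed sign: the YAP-KO response of Tpm2, 0.03 after centring. The counts of members past 2-fold changed in 4 cases. With quantile normalization Cnn2 in wildtype (0.92) and the difference of responses of Myl9 (-0.92) fell under 2-fold, which left 7 and 3 of 9. Centring took the difference of responses of Flna to -1 (5 of 9), and against the wildtype 0 h array the YAP-KO response of Tpm1 was 1.10 (4 of 9).

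Of 481 list medians 14 moved by 1.5-fold or more, mostly in small marker lists, and 22 changed sign. Among the sign changes, the stellate wildtype response went from -0.06 to 0.09 after centring. For SRF partners the YAP-KO response went from -0.06 to 0.16 against the wildtype 0 h array. With the 60th percentile filter the wildtype response was 2.69 for other actin genes. With that filter the biliary wildtype response went from 0.015 to 2.53, with 1 gene kept.

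Over all genes, 6504 differed 1.5-fold and 877 4-fold in wildtype, 3605 and 149 in YAP-KO, 1525 and 44 between the genotypes at 0 h, 3998 and 355 at 24 h, and 5577 and 451 for the difference of responses. Of genes called 2-fold, 68.3% were higher in wildtype at 24 h and 57.8% after quantile normalization; for YAP-KO minus wildtype at 24 h it was 36.1% and 48.7%. Centring moved the median of all genes by 0.15 in wildtype.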

Other observations

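Some genes of the lists were read only by probe sets annotated to more than 1 gene. The probe set of Myh9, the non-muscle myosin heavy chain gene, shared with Gm22107, read 9.64 at 0 h and 13.01 at 24 h in wildtype, against 10.23 and 11.70 in YAP-KO. That of the adhesion gene Pdlim7, shared with a microRNA gene, read 5.38 at 0 h and 6.79 at 24 h in wildtype, against 5.33 and 5.89 in YAP-KO. That of the myosin light chain gene Myl6, shared with Gm8894, read 10.77 and 10.74, then 11.71 and 11.64, nearly alike in the genotypes. That of the AP-1 gene Junb, shared with Prdx2, stayed between 6.22 and 6.52.

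Of 52 genes of the 6 lists with a promoter window, 6 had an exact CArG box (Acta1, Actc1, Egr2, Fhl2, Lima1 and Myl6), in 10 of the 72 windows of these 52 genes. That is 13.9% of the 72 windows, against 1.63% of all 32851 windows. The lists were picked as actin and SRF genes, so this share too describes the choice as much as the genes. Among the 6, Lima1, which encodes an actin crosslinker, read 8.84 at 0 h and 8.32 at 24 h in wildtype, against 8.71 and 8.76 in YAP-KO, lowest in wildtype at 24 h. Acta2, well known as an SRF target, was not among the 6, and such elements can lie outside these windows.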
